A study of Mus musculus with 12 samples.

Results

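The genes described here, of macrophage fusion and of the osteoclast programme, were followed in bone marrow-derived macrophages (BMMs). They are Dcstamp, Ocstamp, Atp6v0d2, Cdh1, Acp5, Ctsk, Nfatc1, Oscar, Mmp9 and Itgb3. They were listed by name, by their known roles in fused macrophages, with earlier results of these data known, so that their counts are a description. They are 10 of the 38887 genes in each expression table. All 10 were found by their Ensembl identifiers. The RNA-Seq experiment held 12 libraries, with 3 in each of 4 groups, and asked how loss of the RNA-binding protein IGF2BP2 affects untreated (M0) and IL-4-treated (M2) macrophages. WT and IGF2BP2 KO BMMs were grown from marrow for 6 days in medium with 50 ng/ml murine M-CSF, which all groups received. M2 cells then had 20 ng/ml IL-4 for 8 h, whereas M0 cells had none. KO mice joined the floxed Igf2bp2 allele B6.Cg-Igf2bp2tm1.1Thor/J, in which exons 4 and 5 are flanked by loxP sites, with the 29P2-Lyz2tm1(cre)Ifo/J allele, in which the Lyz2 locus drives Cre in myeloid cells. The WT group came from the same litters, had no floxed Igf2bp2 and may or may not have carried the Cre, and mice were 3 to 4 months old. Each group held 3 mice.

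Macrophages can fuse into multinucleated cells, and the result depends on the signal. RANK ligand together with M-CSF gives osteoclasts, which seal onto bone through the αvβ3 integrin, acidify the space below with a vacuolar proton pump and digest the matrix with cathepsin K and other proteases, all under the transcription factor NFATc1. IL-4 instead gives multinucleated giant cells through STAT6, with E-cadherin at the cell contacts, and IL-4 is known as an inhibitor of osteoclast formation. DC-STAMP and OC-STAMP, related membrane proteins, and the pump subunit encoded by Atp6v0d2 serve in both kinds of fusion. The culture protocols name M-CSF and IL-4 and no RANK ligand, and fusion itself was not measured in these libraries.

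The cells carried the RNA of macrophages. The 7 macrophage markers (Adgre1, Cd68, Csf1r, Itgam, Fcgr1, Mertk and Cd14) summed to between 3490 and 4310 TPM (a transcript share, scaled for gene length and library size) in every library, and no marker of this list was at 0. Within that sum single markers moved with IL-4. Cd14, a co-receptor for lipopolysaccharide, fell 8.52-fold in WT and 7.27-fold in KO, and Fcgr1, a receptor for IgG, fell 2.04-fold and 2.20-fold. Adgre1, which encodes F4/80, rose by 0.64 and 0.51 on the log2 scale and Csf1r, the M-CSF receptor, by 0.17 and 0.19, while Itgam and Mertk rose in WT by 0.38 and 0.45 and were not called in KO, and Cd68 was called in neither genotype. The Csf1r calls were lost in 4 of the 11 alternative analyses in each genotype (adjusted p up to 0.151 in WT and 0.118 in KO), and the Mertk call in 4 of 11 (up to 0.0997) and without WT M2 library 2 (0.0524). The 5 dendritic cell markers (Itgax, Zbtb46, Flt3, Ccr7 and Cd209a) summed to 4.68 to 7.18 TPM in WT M0 and 5.83 to 8.99 TPM in KO M0, and to 27.0 to 32.7 TPM in WT M2 and 19.8 to 25.1 TPM in KO M2, nearly all of it Itgax, with Flt3 and Ccr7 at 0 in WT M0 and Cd209a at 0 in KO M0. Itgax rose 5.69-fold in WT and 3.13-fold in KO, and Zbtb46 rose 5.82-fold and 5.45-fold. Their part in the IL-4 changes described below was not tested. The 11 IL-4 response genes fixed as a control, Retnla among them, rose in both genotypes, with a median log2 fold change of 6.73 in WT and 7.0 in KO. Igf2bp2 stood at 76.5 to 118 CPM (counts scaled to library size, not to gene length) in WT M0 and at 84.9 to 95.9 CPM in KO M0, values that overlapped, and at 178 to 233 CPM in WT M2 against 129 to 146 CPM in KO M2. These sums run over the whole gene, including the exons outside the deletion, and so do not check the deletion. Lyz2, whose locus holds the Cre insert, stood at 7030 to 10500 CPM in WT M0 and at 22.1 to 33.2 CPM in KO M0, so that loss of Lyz2 and loss of IGF2BP2 cannot be told apart in any comparison of genotypes. Library totals ran from 20011792 to 39632770 expected counts and were lowest in WT M2, at 20011792 to 22744704, against 27347077 to 39632770 in KO M2.

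On the TPM scale, which allows levels of different genes to be compared, Mmp9 was the most abundant of the 10 genes in each of the 4 groups. Its mean TPM was 261 ± 52.0 (SD, n = 3) in WT M0 and 358 ± 68.9 (SD, n = 3) in WT M2. Behind it in WT M0 came Nfatc1, Dcstamp, Acp5 and Atp6v0d2, at means of 19.9, 17.7, 13.2 and 11 TPM. Each overlapped its neighbour in the range of its 3 libraries. Nfatc1, at 17.47 TPM or more, lay above Acp5, at 17.37 TPM or less, and above Atp6v0d2, at 16.1 TPM or less. Within each WT M0 library these genes kept this order. Ctsk followed at 3.78 TPM, and Ocstamp, Itgb3, Cdh1 and Oscar lay below 1 TPM at means of 0.497, 0.480, 0.207 and 0.10. With IL-4 the order changed. In WT M2, Atp6v0d2 moved to the second place at 93.2 ± 12.1 TPM (SD, n = 3) and Cdh1 from the ninth to the third at 24.7 ± 3.73 TPM, a place whose range overlapped that of Dcstamp at 22.7 TPM. Itgb3 reached 13.6 TPM, a range that overlapped that of Nfatc1 at 15.4 TPM, and Ctsk at 4.31 TPM and Ocstamp at 3.60 TPM overlapped. KO cells placed the 10 genes in a like order, led by Mmp9 at 243 TPM in M0 and 214 TPM in M2.

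**Figure D1:**
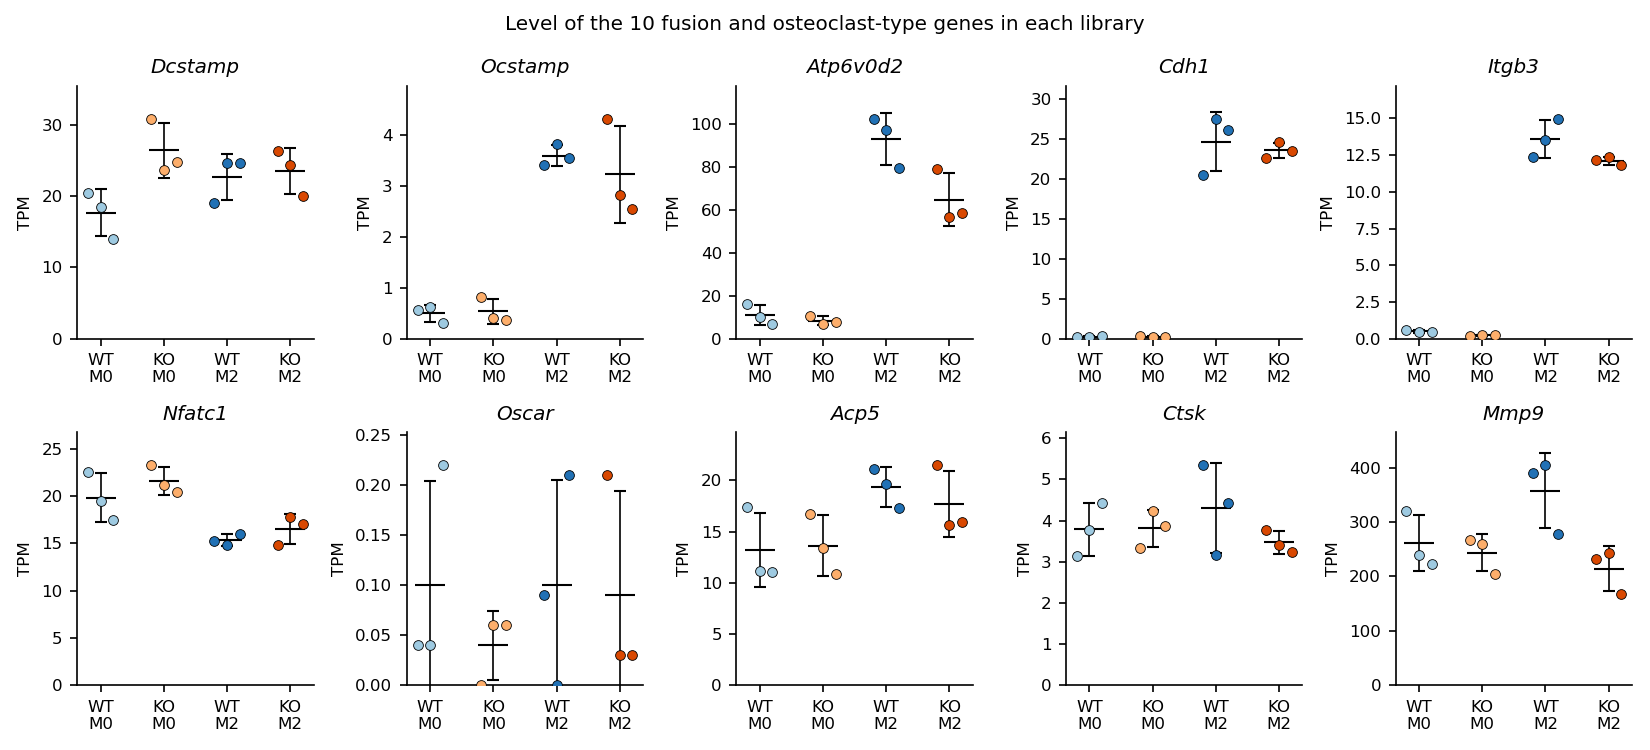
TPM of each of the 10 genes (y axis, linear, from 0) in the 3 libraries of WT M0, KO M0, WT M2 and KO M2 (x axis). Points are libraries, and bars give mean and SD. Ocstamp, Atp6v0d2, Cdh1 and Itgb3 were higher in every M2 library than in every M0 library, while Nfatc1 was lower in every M2 library than in the M0 libraries of its genotype.

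Of the 10 genes, 9 had enough counts to be tested in a fit over 12846 genes, and Oscar did not. IL-4 changed 8 of the 9 in WT cells at an adjusted p under 0.05, with 7 higher and 1 lower, where the same test called 50.0% of all genes tested, 24.9% higher and 25.1% lower. In KO cells it changed 5 of the 9, with 4 higher and 1 lower, against 52.8% of all genes, 26.8% higher and 26.0% lower. When 1 library was left out, the members called numbered 5 to 8 in WT and 5 to 6 in KO. Between genotypes, 2 of the 9 differed in M0, with 1 higher and 1 lower in KO, against 9.78% of all genes, 5.50% higher and 4.27% lower, and 0 differed in M2, against 2.68% of all genes. At an unadjusted p under 0.05, the M2 comparison held 2 of the 9 members, Atp6v0d2 and Mmp9, against 20.3% of all genes. DESeq2 called 1, Mmp9, against 3.41% of the 20576 genes it fitted. That share includes genes of low counts, which the edgeR filter left out. The difference of the IL-4 responses, KO minus WT, was called for 1 member, Itgb3, with a higher value in KO, against 3.24% of all genes, 1.11% higher. The 4 comparisons share control groups, so they are given side by side below. The members' median log2 fold change was 0.60 for IL-4 in WT and 0.46 for IL-4 in KO, beside medians of -0.008 and 0.014 over all genes tested, and it was 0.03 in M0 and -0.13 in M2 for KO against WT, beside -0.001 in both over all genes.

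**Figure D2:**
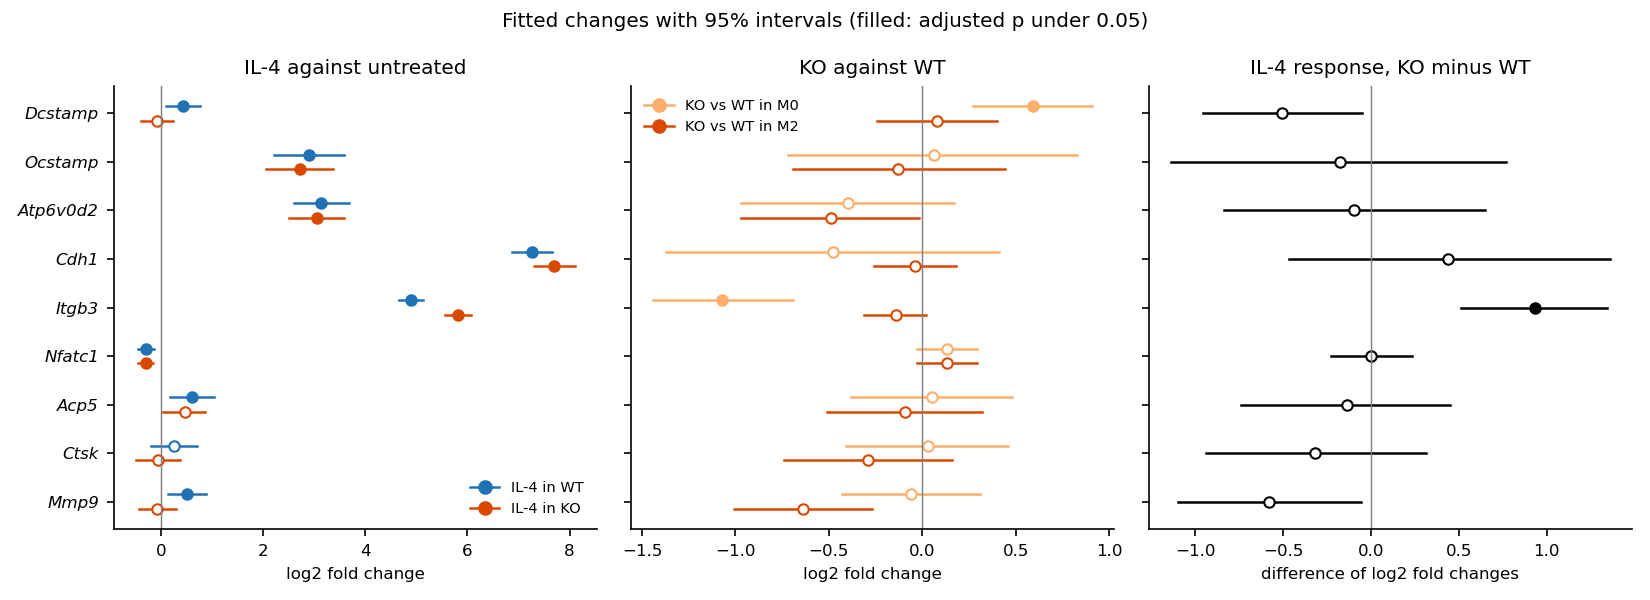
Fitted log2 fold changes (x axis) of the 9 tested genes (y axis) for IL-4 against untreated in each genotype, for KO against WT in M0 and in M2, and for the difference of the IL-4 responses. Bars are 95% intervals, and filled points have an adjusted p under 0.05. Cdh1 and Itgb3 lie farthest to the right for IL-4, at 4.89 to 7.70, and Itgb3 alone is filled in the difference of the responses, at 0.93.

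Dcstamp (chr15:39745930-39760938 in GRCm38), the membrane receptor that precursors need in order to fuse, was the gene that differed upward in KO M0 cells. It stood at 21.1, 19.3 and 15.5 CPM in the WT M0 libraries and at 32.5, 25.2 and 26.6 CPM in the KO M0 libraries. Every KO library was above every WT library, as was so for 16.2% of all genes tested. The log2 fold change was 0.59 ± 0.15 (SE), or 1.5-fold, with an edgeR adjusted p of 0.0273. With IL-4 the WT libraries stood at 20.9, 27.3 and 27.2 CPM and the KO libraries at 30.8, 26.8 and 22.3 CPM, so that the genotypes overlapped and the log2 fold change was 0.08 with a 95% interval of -0.24 to 0.40. IL-4 raised Dcstamp in WT cells by 0.43 ± 0.15 on the log2 scale (adjusted p = 0.0336), although WT M0 library 1 lay above WT M2 library 1, and in KO cells the value was -0.08 (adjusted p = 0.669). The difference of these responses was -0.51 with an interval of -0.96 to -0.05 and an adjusted p of 0.229. Both calls were close to the threshold. The M0 call was lost without WT M0 library 2 (adjusted p = 0.0767) or 3 (0.0585) or KO M0 library 1 (0.0969) or 3 (0.0651), and the IL-4 call without WT M0 library 2 (0.0575) or 3 (0.11) or WT M2 library 2 (0.117) or 3 (0.104). On TPM with limma, neither was called, at 0.0572 to 0.117 for M0 and 0.0854 to 0.155 for IL-4 in WT.

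Ocstamp (chr2:165393760-165400405), the related membrane protein, was scarce in M0 and rose with IL-4 in both genotypes. In M0 the WT libraries had 1.1, 1.22 and 0.623 CPM and the KO libraries had 1.62, 0.822 and 0.747 CPM, from 16 to 44 counts per library. With IL-4 the WT libraries had 7.04, 7.94 and 7.36 CPM, and the KO libraries had 9.45, 5.82 and 5.30 CPM. The lowest M2 library was thus above the highest M0 library, and within a genotype such a gap upward was found for 27.9% of all genes tested in WT and 32.1% in KO. The log2 fold change was 2.90 ± 0.31 in WT (7.48-fold, adjusted p = 6.67e-06) and 2.72 ± 0.30 in KO (6.58-fold, adjusted p = 7.34e-06), and their difference of -0.18 had an interval of -1.14 to 0.77, which leaves room for a sizeable difference either way. Genotypes overlapped in M0 and in M2. In M2, Dcstamp remained the more abundant of the related pair, at 22.7 TPM against 3.60 TPM in WT cells and 23.6 TPM against 3.23 TPM in KO cells.

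Atp6v0d2 (chr4:19876841-19922605) encodes the d2 subunit of the membrane sector of the vacuolar proton pump, an isoform of osteoclasts and some macrophages, while its paralog Atp6v0d1 is used by most cells. Atp6v0d2 stood at 21.3, 13.6 and 9.74 CPM in WT M0 and at 14.5, 9.42 and 10.6 CPM in KO M0. With IL-4 the WT libraries reached 145, 139 and 113 CPM, and the KO libraries reached 119, 80.3 and 83.7 CPM. Each M2 library was far above each M0 library, and IL-4 raised the gene 8.84-fold in WT (log2 3.14 ± 0.25, adjusted p = 3.71e-07) and 8.28-fold in KO (log2 3.05 ± 0.25, adjusted p = 4.69e-07). The KO values lay lower in M2, with KO library 1 inside the WT range, at a log2 fold change of -0.49 (interval -0.97 to -0.02, adjusted p = 0.232). Atp6v0d1 rose far less, by 0.30 in WT (adjusted p = 0.00303) and by 0.26 in KO (adjusted p = 0.00671) on the log2 scale.

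The d2 isoform therefore made up a larger part of the d-subunit RNA in M2 cells. As a percentage of the summed TPM of both paralogs, a measure chosen after the values were seen, d2 was 8.59, 5.65 and 3.43 in WT M0 and 5.05, 3.21 and 3.65 in KO M0, and 33.3, 32.4 and 26.4 in WT M2 and 25.7, 19.8 and 20.3 in KO M2. All M2 shares were above all M0 shares. In M2 every KO share was below every WT share, at means of 21.9% ± 3.26 (SD, n = 3) and 30.7% ± 3.73 (SD, n = 3), with an exact two-sided permutation p of 0.1, the smallest that 3 against 3 libraries can give.

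**Figure D3:**
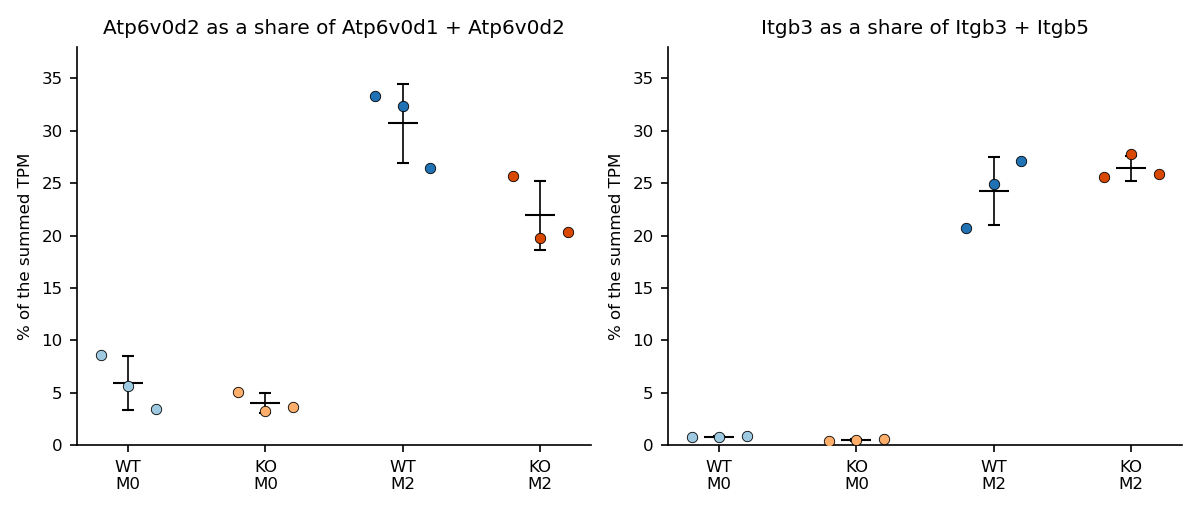
Atp6v0d2 as a percentage of Atp6v0d1 + Atp6v0d2 and Itgb3 as a percentage of Itgb3 + Itgb5, both from TPM (y axis), in the libraries of the 4 groups (x axis). Points are libraries, and bars give mean and SD. The d2 share was 3.21 to 8.59 in M0 and 19.8 to 33.3 in M2, and the β3 share 0.367 to 0.866 in M0 and 20.7 to 27.8 in M2.

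Cdh1 (chr8:106603351-106670246), which encodes E-cadherin, the calcium-dependent adhesion protein of epithelia and of IL-4-treated macrophages, showed the largest IL-4 change of the 9 tested genes in both genotypes. It was close to the limit of detection in M0, with 9, 14 and 12 counts in WT and 11, 12 and 6 counts in KO. With IL-4 it reached 51.5, 69.6 and 65.6 CPM in WT, from 1133, 1351 and 1283 counts, and 60.4, 61.5 and 59.6 CPM in KO, from 1604, 2378 and 2213 counts. The genotypes overlapped in both states. The log2 fold change was 7.26 ± 0.18 in WT (adjusted p = 1.09e-11) and 7.70 ± 0.18 in KO (adjusted p = 7.69e-12), or 153-fold and 208-fold. Their difference of 0.44 had an interval of -0.47 to 1.36. Both folds rest on M0 values of 0.166 to 0.467 CPM. On TPM the means went from 0.207 to 24.7 in WT and from 0.247 to 23.6 in KO. On that scale the rise was larger in WT, the reverse of the order on CPM.

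Other epithelial genes stayed at or near 0. The epithelial markers Epcam, Krt8, Krt18, Krt19 and Cldn4 summed to at most 0.13 TPM in M0 and 0.29 TPM in M2, and Krt8 was at 0 in all 12 libraries. Of the 9 cadherin partners listed, 5 could be tested, and IL-4 lowered 3 of them in WT and 2 in KO and raised none, where it lowered 25.1% and 26.0% of all genes. Ctnna1, the α-catenin that ties cadherins to actin, fell by 0.28 in WT and by 0.35 in KO on the log2 scale (adjusted p = 0.000127 and 1.67e-05). Ctnnb1, or β-catenin, fell by 0.13 in WT (adjusted p = 0.0344), with -0.04 in KO (adjusted p = 0.469), and Ctnnd1, or p120, was at -0.03 and -0.14 and not called. Cdh5, the cadherin of endothelium, fell by 1.2 and by 1.51 from a low mean of 1.69 CPM in WT M0. The list's median was -0.13 in WT and -0.14 in KO. Cdh2, Cdh3, Itgae and Klrg1 had at most 8 counts in any library. The cytoplasmic partners were already present in untreated cells, with Ctnna1 at a mean of 235 CPM in WT M0.

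Itgb3 (chr11:104608000-104670476), the β3 chain of the αvβ3 vitronectin receptor with which osteoclasts attach to bone, differed between genotypes in M0 and in its response to IL-4. The WT M0 libraries had 1.71, 1.41 and 1.4 CPM, from 53, 43 and 36 counts, and the KO M0 libraries 0.588, 0.716 and 0.830 CPM, from 16, 27 and 30 counts. Every KO library was below every WT library, as was so for 14.9% of all genes tested, and the log2 fold change was -1.07 ± 0.17 (adjusted p = 0.00311), so that KO cells held 2.10-fold less. With IL-4 the WT libraries rose to 40.7, 44.8 and 49.3 CPM, and the KO libraries to 42.4, 40.6 and 39.2 CPM. The genotypes now overlapped, at a log2 fold change of -0.14 (interval -0.31 to 0.02, adjusted p = 0.316). IL-4 raised Itgb3 by 4.89 ± 0.11 in WT (29.6-fold, adjusted p = 5.27e-12) and by 5.81 ± 0.12 in KO (56.2-fold, adjusted p = 2.83e-12).

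The IL-4 response of Itgb3 was thus larger in KO cells, by 0.93 ± 0.19 on the log2 scale (interval 0.51 to 1.34, adjusted p = 0.0218), from a lower start to a like end. The M0 difference was called in all 12 fits that left out 1 library, at adjusted p between 0.00213 and 0.0180. The difference of responses was lost without KO M0 library 1 (adjusted p = 0.0645) or 2 (0.0652), and after thinning to the depth of the smallest library (log2 0.72, adjusted p = 0.0883). With limma on log2(TPM + 1) the M0 difference was -0.27 (adjusted p = 0.109) and the difference of responses 0.12 (adjusted p = 0.708), a scale on which changes of a gene below 1 TPM are compressed. With a pseudocount of 0.1 the M0 difference was called (adjusted p = 0.0109) and the difference of responses was 0.68 (adjusted p = 0.168).

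Itgav, the αv chain that pairs with β3, and Itgb5, an alternative β chain for αv, went the other way. Itgav fell with IL-4 by 0.70 in WT (adjusted p = 0.000797) and by 0.52 in KO (adjusted p = 0.0055), and Itgb5 fell by 0.46 (adjusted p = 0.00167) and by 0.32 (adjusted p = 0.0144). The β3 share of the summed Itgb3 and Itgb5 TPM, again a measure chosen after the values were seen, was 0.756, 0.749 and 0.866% in WT M0 and 0.367, 0.465 and 0.570% in KO M0. With IL-4 it was 20.7, 24.9 and 27.1% in WT and 25.6, 27.8 and 25.9% in KO. Every M2 share was above every M0 share, the KO M0 shares were all below the WT M0 shares (exact two-sided permutation p = 0.1 for each, the smallest possible), and the M2 shares of the genotypes overlapped. Even in M2, β5 remained the more abundant β chain, at a mean of 42.8 TPM against 13.6 TPM for β3 in WT.

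**Figure D4:**
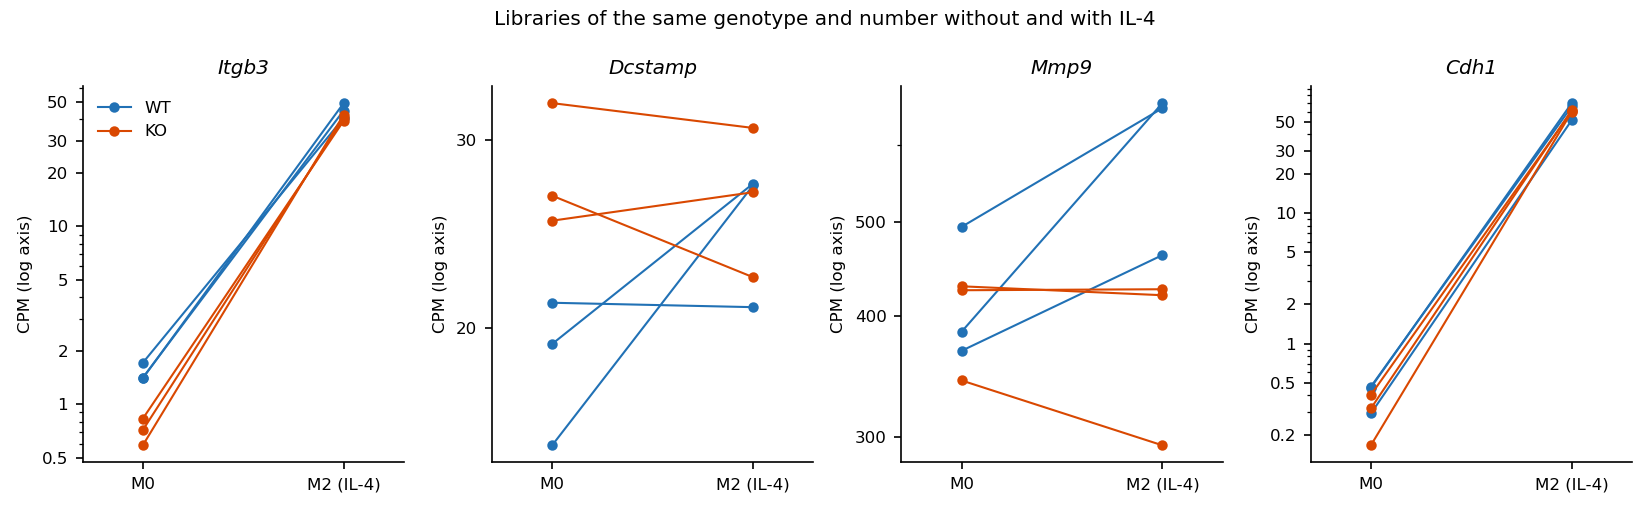
CPM (y axis, log scale) of Itgb3, Dcstamp, Mmp9 and Cdh1 in M0 and M2 libraries (x axis), with a line between libraries of the same genotype and number. Itgb3 started at 0.588 to 0.830 CPM in KO and 1.4 to 1.71 CPM in WT and ended at 39.2 to 49.3 CPM in all, the Dcstamp lines of the genotypes were apart in M0 and overlapped in M2, and the Mmp9 lines overlapped in M0 and were apart in M2.

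Nfatc1 (chr18:80606205-80713071), the transcription factor that directs the osteoclast programme, was the member that IL-4 lowered. It stood at 54.4, 47.7 and 45.1 CPM in WT M0 and 57.3, 52.8 and 51.3 CPM in KO M0, and at 39.5, 38.6 and 41.5 CPM in WT M2 and 40.5, 45.8 and 44.3 CPM in KO M2. Within each genotype every M2 library was below every M0 library, as was so for 27.3% of all genes tested in WT and 31.3% in KO. The log2 fold change was -0.30 ± 0.08 in WT (adjusted p = 0.00481) and -0.30 ± 0.07 in KO (adjusted p = 0.00346), and the responses differed by 0.00 (interval -0.23 to 0.23). The genotypes overlapped, with a log2 fold change of 0.13 in either state (adjusted p = 0.286 and 0.358). Tnfrsf11a, which encodes RANK, the receptor upstream of NFATc1, also fell with IL-4, by 0.49 in WT (adjusted p = 0.0022) and by 0.83 in KO (adjusted p = 3.15e-05). Fos, the AP-1 subunit that acts with NFATc1, fell by 2.20 and by 2.25 (adjusted p = 1.84e-07 and 1.35e-07).

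Oscar (chr7:3609813-3616157), the osteoclast-associated co-receptor and a known NFATc1 target, was at the floor. Its 12 libraries held 0 to 5 counts each, or at most 0.22 TPM, and it was left out of the fit. In the library of KO M0 and that of WT M2 with 0 counts, 3 counts would be 0.113 and 0.149 CPM on the plain library totals, without TMM factors. These limits cover counting error only. No difference was detectable at this depth.

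Acp5 (chr9:22126727-22135711), the tartrate-resistant acid phosphatase used to stain osteoclasts, was present at a moderate level. It stood at 12.0, 7.79 and 8.45 CPM in WT M0 and 12.0, 9.58 and 7.88 CPM in KO M0, and at 15.5, 14.5 and 12.8 CPM in WT M2 and 16.9, 11.6 and 12.0 CPM in KO M2. IL-4 raised it by 0.60 ± 0.20 in WT on the log2 scale (1.52-fold, adjusted p = 0.0231), with no overlap. In KO the value was 0.46 (interval 0.04 to 0.87, adjusted p = 0.0613). Of the 11 alternatives 2 called it, 1 without a count filter (adjusted p = 0.0454). The other had the library number within a genotype as a block (0.00318), a pairing inferred from correlations and not stated by the labels. Of the 6 fits without 1 KO library, those without KO M0 library 1 (0.026) or KO M2 library 2 (0.046) called it and 4 did not. It was also called without WT M0 library 1 (0.0333). The WT call was lost without WT M0 library 2 (adjusted p = 0.0926) or 3 (0.0646) or WT M2 library 1 (0.0780) or 2 (0.0598). With limma it was lost without a filter (0.0754) and on the posterior mean TPM (0.0565). The responses differed by -0.14 (interval -0.74 to 0.45), and the genotypes overlapped in both states, at 0.05 in M0 and -0.09 in M2.

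Ctsk (chr3:95499256-95509362), cathepsin K, the main collagen-degrading protease of osteoclasts, was low and was the tested member called in no comparison. It stood at 2.36, 2.89 and 3.58 CPM in WT M0, 2.57, 3.32 and 3.04 CPM in KO M0, 4.32, 2.58 and 3.58 CPM in WT M2 and 3.24, 2.74 and 2.64 CPM in KO M2, and all groups overlapped. The 95% intervals of the log2 fold change were -0.19 to 0.70 for IL-4 in WT, -0.50 to 0.37 for IL-4 in KO, -0.41 to 0.46 for KO against WT in M0 and -0.74 to 0.16 in M2.

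Promoter windows from RefSeq (GRCm38.p6), of 250 bases before to 50 bases after a start site, were at hand for Acp5, Ctsk and Oscar, with 3 start sites for Acp5. Motifs were searched on both strands, and matches are shown to let the IL-4 values of these genes be read beside their sequence. The STAT6-type palindrome TTCNNNNGAA was found in 1 of the 5 windows, a window of Acp5 (match in capitals), and in 6.95% of all promoter windows in the table. The PU.1 core GAGGAA, or its complement, was found in Ctsk and Oscar and in 28.3% of all windows. A match is a string of letters in the window and not a binding site. The palindrome TTCNNNGAA and the AP-1 site TGANTCA, held by 8.30% and 7.81% of all windows, were not among the letters of these 5 windows. The E-box CANNTG was in each of them and in 72.3% of all windows.
Acp5 (STAT6-type palindrome, 110 bases before the start): catttccagTTCTGGGGAAgtccagtgc
Ctsk (PU.1 core, reverse strand, 58 bases before the start): aatgtgtgtccTTCCTCcctaacccctc
Oscar (PU.1 core, reverse strand, 20 bases after the start): tgttgcttcatTTCCTCagagtgaaaaa

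Mmp9 (chr2:164940780-164955850), gelatinase B, a secreted protease of osteoclasts, macrophages and neutrophils, showed a genotype difference in M2 that did not pass the adjusted threshold in the edgeR test. It stood at 494, 385 and 368 CPM in WT M0 and 425, 429 and 343 CPM in KO M0, which overlapped (log2 fold change -0.06, interval -0.43 to 0.31). With IL-4 the WT libraries had 655, 663 and 462 CPM, against 426, 420 and 294 CPM for the KO libraries. Every KO M2 library was below every WT M2 library, as was so for 11.7% of all genes tested. The log2 fold change was -0.64 ± 0.17 (interval -1.01 to -0.27, unadjusted p = 0.00257, adjusted p = 0.0675). DESeq2 gave an adjusted p of 0.032. Of the 6 fits without 1 of these libraries, 1 called it, without WT M2 library 3 (log2 -0.79, adjusted p = 0.0332). The other 5 did not, with log2 values of -0.49 to -0.73 and adjusted p from 0.0797 to 0.239. M0 libraries enter this test through the shared spread. Without WT M0 library 1 (adjusted p = 0.0473) or 3 (0.0424) it was called, and without 1 of the other M0 libraries it was not. Over the 11 alternatives the adjusted p ran from 0.00589 to 0.163, and 4 were under 0.05. The lowest came from the block on library numbers, which were not taken to pair WT with KO, and another from limma on the posterior mean TPM, which called 30.4% of all genes in M2.

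IL-4 raised Mmp9 in WT cells, by 0.51 ± 0.17 (1.43-fold, adjusted p = 0.0239), although WT M0 library 1 was above WT M2 library 3, and in KO cells the value was -0.07 (interval -0.44 to 0.30, adjusted p = 0.761). The responses differed by -0.58 (interval -1.10 to -0.06, adjusted p = 0.229), and the fit with the same inferred block gave -0.59 with an adjusted p of 0.0141. The WT call was lost without WT M0 library 2 (adjusted p = 0.0774) or 3 (0.0734) or WT M2 library 1 (0.0852) or 2 (0.0958). It was also lost with limma on each TPM scale, at adjusted p of 0.0709 to 0.138. Neutrophils also store this protease. The 7 neutrophil markers (S100a8, S100a9, Mpo, Elane, Ly6g, Ngp and Camp) summed to 22.1 to 55.9 TPM in WT M0, 16.7 to 18.4 TPM in KO M0, 13.1 to 32.9 TPM in WT M2 and 12.8 to 17.8 TPM in KO M2, with Ly6g at 0 in all 12 libraries. Their part in the Mmp9 values was not tested. In a bulk sample, fewer cells of a type and less RNA per cell cannot be told apart.

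The wider pathway was read from 7 lists of known osteoclast and fusion genes, beside the 24.9% of all genes that IL-4 raised and 25.1% that it lowered in WT, and the 26.8% and 26.0% in KO. Among the V-ATPase subunits other than Atp6v0d2, 17 of 17 were tested, and IL-4 raised 10 in WT and 10 in KO and lowered none, with list medians of 0.43 and 0.32. Atp6v0a1, an a-subunit isoform, rose by 2.63 in WT and 2.51 in KO, Atp6v1b2 by 1.16 and 0.93, and Tcirg1, the a3 subunit of the osteoclast pump, by 0.90 and 0.72. Among 21 genes of acid secretion and matrix resorption, 19 were tested, and IL-4 raised 7 and lowered 6 in WT and raised 8 and lowered 6 in KO, with medians of 0.10 and 0.00. Mmp13, an interstitial collagenase, rose by 2.97 and 2.39, and Mmp12, the macrophage elastase, by 1.14 and 0.76. Car2, the carbonic anhydrase that supplies protons in osteoclasts, rose by 1.80 and 1.91 from a mean of 0.443 CPM in WT M0. Its value in KO ran from 1.59 to 2.63 when 1 library was left out. Mmp14 fell by 1.75 and by 2.16, and Snx10, a sorting nexin that osteoclasts need, fell by 0.52 in both. Calcr, the calcitonin receptor of mature osteoclasts, had 0 counts in every library, and Siglec15 had at most 9.

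Of the 18 osteoclast transcription factors, all tested, IL-4 raised 8 and lowered 7 in WT and raised 9 and lowered 7 in KO, with medians of 0.05 and 0.12. Fosl2 rose by 2.36 in WT and 2.16 in KO, Nfkb1 by 1.47 and 1.88 and Jund by 1.47 and 1.53. Beside Fos, Jdp2, an AP-1 factor, fell by 2.16 and by 1.53, and Relb, of the alternative NF-κB pathway, fell by 1.26 and by 0.58. Of 16 receptors and adaptors of the RANK and M-CSF pathways, 14 were tested, and IL-4 raised 5 and lowered 3 in WT and raised 5 and lowered 4 in KO, with medians of -0.02 and 0.06. Csf1, which encodes M-CSF, rose by 1.16 and 2.15, the docking protein Gab2 by 1.22 and 0.77 and the kinase Btk by 0.58 and 0.53, whereas the inhibitory receptor Pirb fell by 0.38 and by 0.68 and Plcg2 fell by 0.17 and by 0.38. Tnfsf11, the RANK ligand, had at most 2 counts, and its decoy receptor Tnfrsf11b at most 9.

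Among 13 listed inhibitors of osteoclast formation, 12 were tested, and IL-4 raised 2 and lowered 4 in WT and raised 4 and lowered 5 in KO, with medians of -0.01 and -0.02. Id2, a helix-loop-helix repressor, rose by 0.90 and 1.42, whereas Id3 fell by 2.87 and by 1.25, Nfkbia, the NF-κB inhibitor, by 1.44 and by 0.91, and the phosphatase Ptpn6 by 0.37 and by 0.47. Sh3bp2, which is in this list, is an adaptor known to promote osteoclast formation. Among 21 macrophage fusion factors, 19 were tested, and IL-4 raised 10 and lowered 5 in WT and raised 11 and lowered 5 in KO, with medians of 0.38 and 0.33. Ccl2, a chemokine that brings fusing cells together, rose by 1.62 and 1.45, the protease Adam9 by 1.04 and 0.90 and the scavenger receptor Cd36 by 0.77 and 0.55. Dock5 fell by 1.54 and by 1.93, Msr1 by 0.97 and by 1.22 and Spp1, osteopontin, by 0.59 and by 0.40. The genes named as the largest IL-4 increases and decreases of each list, from those called in both genotypes, kept their calls in both genotypes in each of the 12 fits that left out 1 library.

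**Figure D5:**
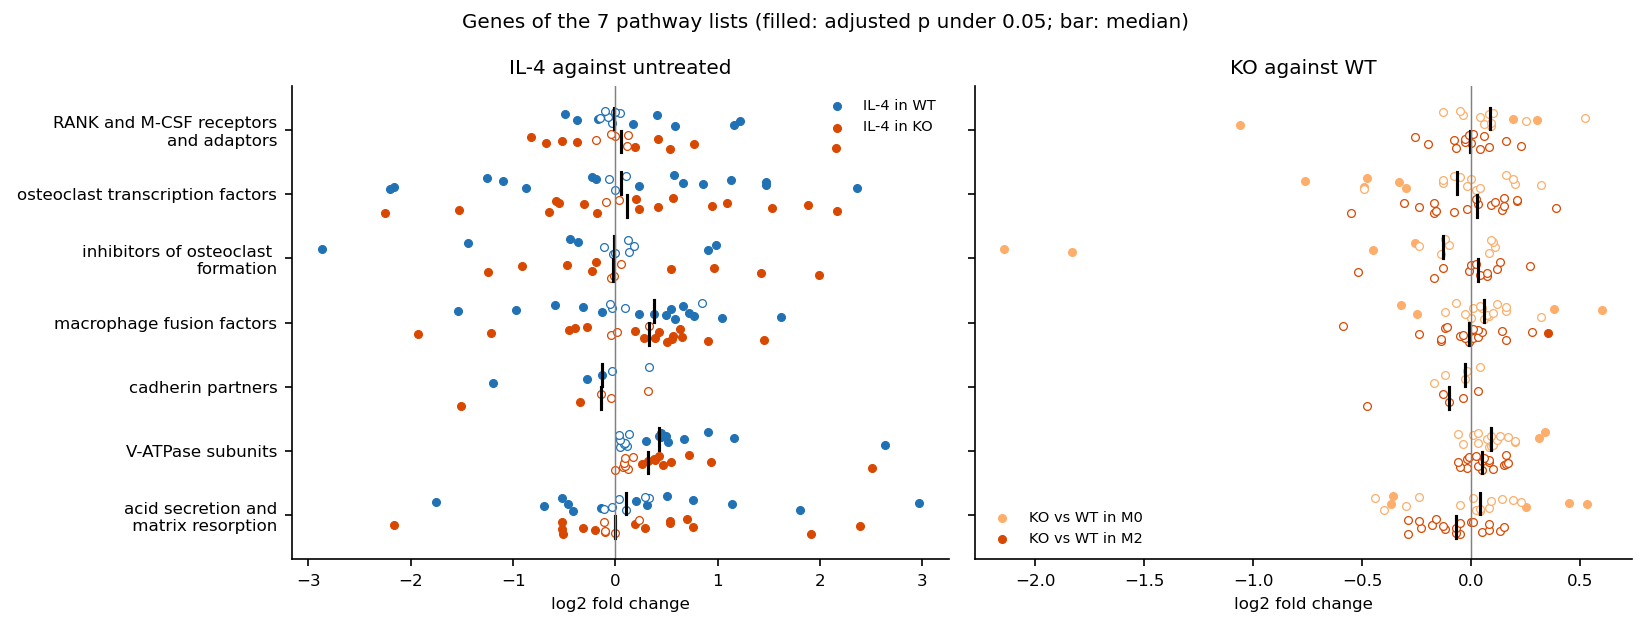
Log2 fold changes (x axis) of the tested genes of 7 pathway lists (y axis) for IL-4 in each genotype and for KO against WT in M0 and M2. Points are genes, filled at an adjusted p under 0.05, and bars are list medians. V-ATPase subunits lie at or to the right of 0 for IL-4, with Atp6v0a1 at 2.63 and 2.51, and in KO M0 Id1, Id3 and Csf1 lie farthest to the left, at -1.83, -2.14 and -1.06.

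Between genotypes, 23 of the 103 list genes tested were called in M0 and 1 in M2, where 9.78% and 2.68% of all genes were called. The inhibitors had 4 of 12 genes lower and 0 higher in KO M0 (median -0.13), and the osteoclast transcription factors 5 of 18 lower and 0 higher (median -0.06), where 4.27% of all genes were lower and 5.50% higher. Id1 and Id3, helix-loop-helix repressors that respond to BMP signals, were at 14.9 and 11.3 CPM in WT M0 and at 4.23 and 2.58 CPM in KO M0, log2 fold changes of -1.83 ± 0.09 and -2.14 ± 0.16 (adjusted p = 7.4e-07 and 2.66e-05), and Id2 fell by 0.45. Nfkb2 fell by 0.76, Relb by 0.48, Jdp2 by 0.49, Nfkb1 by 0.33, Fosl1 by 0.30 and Nfkbia by 0.26. Csf1 stood at 4.74 CPM in KO M0 against 9.81 CPM in WT M0 (log2 -1.06 ± 0.14, adjusted p = 0.000765), and in the same list Pirb and Plcg2 were higher by 0.30 and 0.19. The V-ATPase list had 2 higher and 0 lower, Atp6v1b2 at 0.31 and Tcirg1 at 0.34. Resorption genes had 3 higher, Mmp12 at 0.53, Mmp13 at 0.45 and Ctsl at 0.25, and 2 lower, Itgb5 at -0.37 and Timp2 at -0.36. Fusion factors had 2 higher, Msr1 at 0.60 and P2rx7 at 0.38, and 2 lower, Spp1 at -0.32 and Cd81 at -0.25. Cadherin partners had none called, with 1 of 5 at an unadjusted p under 0.05, against 25.3% of all genes. DESeq2 called none of them, against 7.52% of the 20576 genes it fitted, genes of low counts included.

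Of these 23 list genes, 11 kept the M0 call in each of the 12 fits that left out 1 library. The other 12 all lost it without WT M0 library 2, where the calls over all genes fell to 461 from 1256. They also lost it without KO M0 library 2 in 10 cases, KO M0 library 3 in 9, KO M0 library 1 in 8, WT M0 library 3 in 4 and WT M0 library 1 in 3, with adjusted p up to 0.162 (Mmp13). Without WT M0 library 2 the adjusted p was 0.0561 for Jdp2, 0.0559 for Pirb, 0.0861 for Fosl1, 0.0591 for Ctsl, 0.0737 for P2rx7, 0.0818 for Spp1, 0.102 for Timp2, 0.103 for Itgb5, 0.0990 for Plcg2, 0.106 for Mmp13, 0.0818 for Nfkbia and 0.0550 for Cd81. Under the 11 alternatives 10 of the 23 lost the M0 call at least once, 9 of them with limma on log2(TPM + 1) without a filter, with adjusted p up to 0.249 for Itgb5 and 0.181 for P2rx7. Nfkb1, among the 11 genes above, was lost there as well (0.0520). In M2 the single gene called in the 7 lists was Msr1, higher in KO by 0.35 (adjusted p = 0.0257), which was lost without any of WT M2 libraries 1, 2 or 3 or KO M2 libraries 2 or 3, at 0.0553 to 0.0981, and with limma on the TPM scales, at 0.102 to 0.177. Cell type markers moved in M0 as well. Of the neutrophil markers, S100a9 and Ngp were lower in KO M0, by -1.38 and -1.82 on the log2 scale (adjusted p = 0.0124 and 0.0180). The S100a9 call was lost without WT M0 library 2 (adjusted p = 0.0696) or KO M0 library 2 (0.0659) or 3 (0.0554), and the Ngp call without WT M0 library 2 (0.0902) or KO M0 library 1 (0.0611), 2 (0.0706) or 3 (0.0702). Itgam, of the macrophage markers, was higher in KO M0 by 0.45 (adjusted p = 0.00396) and kept the call in each of the 12 fits. The 7 stromal markers summed to 11.9 to 22.4 TPM in WT M0 and 3.64 to 13.6 TPM in KO M0. In M2 their sums were 13.5 to 23.6 TPM in WT and 3.6 to 11.6 TPM in KO, which did not overlap. The part of the cell type markers in the genotype differences in M0 and M2 was not tested.

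Over the 12 libraries, the members varied together to different degrees. Cdh1, Itgb3, Atp6v0d2 and Ocstamp had Pearson r between 0.953 and 0.989 with each other on log2 CPM. Acp5 had r of 0.740 to 0.845 with these 4 and Mmp9 0.328 to 0.471, whereas Nfatc1 had r of -0.774 to -0.858 with them and Dcstamp and Ctsk had r of at most 0.426 with any of the 4. These are descriptions over 12 libraries that form an untreated and an IL-4-treated cluster. Among genes that averaged 5 CPM or more, those nearest to Cdh1 included Egr2 (r = 0.998) and Cish (0.997), those nearest to Itgb3 were Gatm, Tmem268 and Edn1 (all 0.997), and those nearest to Atp6v0d2 included Tfrc (0.993) and Abcd3 (0.991). Matk (0.990), Hhex (0.987) and Cinp (0.986) were nearest to Ocstamp. Dcstamp was nearest to Asah1 (0.895), Elk1 (0.856) and Pbxip1 (0.849), Mmp9 to Erf (0.908), Enox2 (0.908) and Pofut1 (0.885), Acp5 to Cyp4f13 (0.951), Slc39a11 (0.930) and Timmdc1 (0.916), Nfatc1 to Sorl1 (0.955), Rbm47 (0.952) and Tmem184b (0.952), and Ctsk to Zfp692 (0.799), Zfp53 (0.772) and Gps2 (0.761).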

How the data were processed

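Poly(A) RNA of 12 BMM libraries was sequenced with single 75-nt reads from a directional kit. Per the labels and the study's methods, the authors processed the reads with the Grape-nf pipeline on GRCm38/mm10, after FastQC 0.11.2, and compared groups with DESeq2 1.40.2. The counting tool and its strand setting are not given in the sources used here. The tables the authors deposited hold, per library and gene, an expected count, that is reads shared out among genes by an estimate, TPM and a posterior mean TPM. The authors' comparison tables hold mean counts, fold changes and p-values, none of which was used; the gene symbols of 1 table were.

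Expected counts, of which 6.46% were not whole, were rounded and tested with edgeR 4.0.16 (TMM factors, filterByExpr, quasi-likelihood F test, all 12 libraries, 4 groups; R 4.3.3), with Benjamini-Hochberg adjustment over 12846 genes and a threshold of 0.05. CPM used TMM factors, and the smaller the count, the wider its counting error. Errors of fold changes are SE. The members and lists were chosen with earlier results of these data known. Named list genes were those called between genotypes or in the difference of responses, and the 3 largest increases and decreases with IL-4 among genes called in both genotypes. For each member with a mean of at least 1 CPM, the 3 genes of highest Pearson r among those of at least 5 CPM were named. Alternatives were DESeq2 1.42.0, RLE factors, other count filters, limma 3.58.1 on log2(TPM + 1), log2(TPM + 0.1) and log2 of the posterior mean TPM, a replicate block, 2 groups only, thinning, and leaving out each library. On counts simulated for KO against WT in M0 over 12732 genes, edgeR called 85% of 200 genes changed by 1 on the log2 scale, with 11 false calls. For the difference of the IL-4 responses over 12719 genes it called 76.5%, with 7 false calls. The simulated levels were each gene's mean CPM over all 12 libraries, with no mouse effect. They do not show the rate for members that were scarce in M0.

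The labels number the libraries of each genotype 1 to 3 without and with IL-4. Deviations of same-numbered M0 and M2 libraries from their group means correlated at 0.103 to 0.364 on log2 CPM with a prior count of 2. With a prior count of 0.5 they correlated at 0.086 to 0.321, so the numbers were taken to pair within a genotype. The main fit held no term for this pairing, which entered only the replicate block. Across genotypes, correlations were -0.068 to 0.04, and the numbers were not taken to pair. Protein identities of the paralogs were planned and not analysed here, and Lilrb4a was not found by its symbol. A few genes that the rules for named genes would name are not reported here.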

Additional observations from a re-analysis of the deposited data

Results flagged for a closer look

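The difference of the IL-4 responses between genotypes was tested by the interaction in the edgeR fit over 12846 genes, which held no pairing. It passed the threshold for 1 of the 9 members and 12 of the 103 pathway list genes tested, against 3.24% of all genes. The replicate block, with the inferred pairing, called 1003 of the 12846 genes and 2 members, Itgb3 and Mmp9. Positive values mean a more positive response in KO cells. Itgb3 had 0.93 on the log2 scale (adjusted p = 0.0218), from a lower M0 level in KO.

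Among the repressors and NF-κB genes, the values were 1.86 for Id1 (adjusted p = 4.19e-05), 1.62 for Id3 (0.00741), 0.52 for Id2 (0.0107), 0.79 for Nfkb2 (0.00363), 0.68 for Relb (0.00596), 0.53 for Nfkbia (0.0144) and 0.42 for Nfkb1 (0.0279). Csf1 had 0.99 (adjusted p = 0.0128) and Jdp2 had 0.63 (0.0429). All of these 9 genes were lower in KO M0 than in WT M0. Negative differences were found for Mitf, a transcription factor of osteoclasts and pigment cells, at -0.44 (adjusted p = 0.0306), Mmp12 at -0.38 (0.0154) and Stat6 at -0.23 (0.048).

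Of the 12 list genes, 7 kept the call in each of the 12 fits without 1 library. Jdp2 lost it in 10 of these fits (adjusted p up to 0.108 without KO M2 library 3), Mitf in 9 (up to 0.0954 without WT M2 library 2), Stat6 in 9 (up to 0.129), Nfkb1 in 7 (up to 0.0814 without WT M0 library 2) and Mmp12 in 1 (0.0512 without KO M2 library 3). Under the 10 alternatives for this comparison, Id1, Id3, Nfkb2, Nfkbia and Relb kept the call throughout, and the other 8 genes, Itgb3 among them, lost it in at least 1. Since both responses of a genotype start from its own M0 libraries, a difference in M0 enters this value, and the genotypes in M2 were called for none of the 13 genes.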

How the results depend on the processing

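IL-4 raised Ocstamp, Atp6v0d2, Cdh1 and Itgb3 and lowered Nfatc1 in both genotypes under all 11 alternatives and all 12 fits without 1 library. The other member calls (Dcstamp and Itgb3 between genotypes in M0, Dcstamp, Acp5 and Mmp9 with IL-4 in WT, Itgb3 in the difference of responses) were each lost under at least 1 setting, with values given beside them above. Calls over all genes, 1256, 344, 6428, 6784 and 416 for KO against WT in M0 and M2, IL-4 in WT and KO and the difference of responses, moved by over 1.5 times as follows, and the causes were not tested. With limma on log2(TPM + 1), log2(TPM + 0.1) and log2(TPM + 1) without a filter, M0 had 714, 698 and 507, M2 had 67, 54 and 35, and the difference had 127, 165 and 61. The posterior mean TPM gave 5227 in M2 and 41 in the difference. Of the M2 calls 11.2% were higher in KO on the posterior mean TPM, against 45.3% in edgeR, and of the M0 calls 41.5% against 56.3%. Of the calls for IL-4 in KO 39.1 to 39.6% were higher with limma, against 50.7%, in WT 39.9 to 40.2% on TPM and 54.2% on the posterior mean TPM, against 49.8%, and of those in the difference 52.5 and 58.5% without a filter and on the posterior mean TPM, against 34.4%. On that scale the median gene in the difference was at -0.106, against 0.006. DESeq2 gave 702 in M2 and 820 in the difference, and the M2 libraries alone gave 165. Members called in M0 numbered 0 with limma on log2(TPM + 1), with or without a filter, and on the posterior mean TPM, and 1 with log2(TPM + 0.1). In M2 DESeq2, no count filter, the posterior mean TPM and the replicate block called 1, Mmp9. For IL-4 in WT, limma without a filter and on the posterior mean TPM called 5 of 9. For the difference, limma on any scale and thinning called 0.

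The replicate block gave 1003 genes and 2 members, Itgb3 and Mmp9, for the difference of responses, and added Acp5 for IL-4 in KO (log2 0.45). Beside Mmp9 in M2, named above, it changed no other member call, and the genotype block there rests on numbers that were not taken to pair WT with KO.

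Without each library in turn, genes called ran from 461 to 1461 in M0, 25 to 761 in M2, 5606 to 6678 for IL-4 in WT, 6034 to 7038 in KO and 183 to 643 for the difference, and members called from 1 to 2, 0 to 1, 5 to 8, 5 to 6 and 0 to 1. The M2 count was 25 without KO M2 library 3, 34 without KO M2 library 2 or WT M2 library 2 and 761 without WT M0 library 3, and the M0 count was 461 without WT M0 library 2.

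Log2 fold changes of members turned sign only where they passed the threshold in neither fit. Without 1 library the ranges that cross 0 were, for KO against WT in M2, -0.04 to 0.19 for Dcstamp, -0.42 to 0.03 for Ocstamp, -0.16 to 0.05 for Cdh1, -0.28 to 0.0059 for Acp5. They were, for IL-4 in KO, -0.19 to 0.04 for Dcstamp, -0.16 to 0.02 for Ctsk, -0.17 to 0.09 for Mmp9. They were, for KO against WT in M0, -0.33 to 0.26 for Ocstamp, -0.11 to 0.27 for Acp5, -0.11 to 0.19 for Ctsk, -0.14 to 0.08 for Mmp9. They were, for the difference of responses, -0.48 to 0.20 for Ocstamp, -0.45 to 0.12 for Atp6v0d2, -0.36 to 0.01 for Acp5, -0.08 to 0.05 for Nfatc1. Cdh1 turned from -0.48 to 0.05, 0.17 and 0.05 for KO against WT in M0 with limma on the 3 TPM scales in the order above, and from 0.44 to -0.10, -0.22 and -0.10 in the difference of responses, with -0.02 on the posterior mean TPM. Thinning gave -0.05 and 0.09 for Ctsk in M0 and for IL-4 in KO, and 0.02 for Nfatc1 in the difference.

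The design has 3 libraries per group, KO M2 was sequenced deeper than WT M2, and low counts limit what can be seen for Ocstamp, Cdh1 and Itgb3 in M0 and for Oscar in all groups. A call that was missed does not show that groups are alike.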
